A study of Mus musculus with 8 samples.

Results

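Hypoxic tumour cells were defined here as tumour cells that carry several transcripts of genes which mammalian cells switch on when oxygen is short. A cell was taken as a tumour cell when at least 500 genes were detected, at most 10% of its unique molecular identifiers (UMIs, the tags that count single RNA molecules) came from mitochondrial genes, and at least 0.2% of its UMIs were eGFP or Mycl, which stand for the transplanted line. Among those cells, a cell was called hypoxic when Vegfa, Ankrd37, Egln3, Car9, Adm and Ndrg1 together gave at least 4 UMIs. This held for 5781 of 34719 tumour cells, out of 38460 cell barcodes in the 8 libraries, and 28938 tumour cells were left as the others. Because expression chose the cells, the levels of the 6 genes are a description and carry no test. No oxygen level was measured, so "hypoxic" names this rule.

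The study transplanted N2N1G, a mouse small cell lung cancer line, into mice and asked, per its title, how such tumours grow in the brain. All 8 tumours came from this single line, grew for 3 weeks from the same number of transplanted cells, and were sorted for healthy single cells before droplet capture and sequencing of 3′ mRNA ends. The brain group (n = 2) and the subcutaneous group (n = 3) were injected directly into the tissue, and the liver group (n = 3) was reached through the tail vein, so route and site cannot be told apart for the liver. The labels give no genotype, strain or age of the recipient mice and no treatment, and they do not say whether the replicates of a site came from separate animals. The p-values therefore measure only the spread between these samples, which may be technical.

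Cells sense oxygen through hypoxia-inducible factors (HIF), transcription factors whose alpha subunit is hydroxylated by oxygen-dependent prolyl hydroxylases, bound by the VHL protein and destroyed. When oxygen is short the subunit escapes, pairs with ARNT and binds the core motif RCGTG near genes for glycolysis, vessel growth, collagen hydroxylation and mitochondrial turnover. In solid tumours such cells lie far from perfused vessels. Small cell lung cancer is a neuroendocrine carcinoma, with the Notch ligand DLL3 among its surface proteins.

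The libraries held 27140735 to 63049542 UMIs each, 372293350 in all, with a median of 7972 to 10542 UMIs per tumour cell. Of 37556 distinct barcodes, 882 occurred in more than 1 library, and 18 were hypoxic cells of more than 1 library. In a principal component analysis of the summed profiles, subcutaneous 1 stood apart from the other subcutaneous libraries: its sums lay at -7.87 (hypoxic) and -14 (others) on the first component (42.1% of the variance), where the brain sums spanned -57.2 to -33.9 and all remaining liver and subcutaneous sums 14.4 to 23.1. Host marker UMIs among tumour cells were uneven. Macrophage markers reached 381 and 180 counts per 1000000 UMIs (CPM) in the hypoxic cells of brain 1 and 2 and 127 in subcutaneous 1, glial markers 370 and 259 in the brain libraries, and the hepatocyte list 612 in brain 2. For comparison, macrophage markers summed to 35934 and 34913 CPM in the non-tumour cells of the 2 brain libraries.

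Of the 6 genes of the rule, 5 had a window in the table, and each held the HIF core motif in the 250 bases before a start. For Vegfa this was 1 of its 2 windows, which lies inside the gene (chr17:46025164-46025413). The window before its outer start (chr17:46032378-46032627) held no match. Ankrd37 (an ankyrin repeat protein) and Egln3 (a HIF prolyl hydroxylase) are shown as examples. The motif also stands before P4ha2, a collagen prolyl hydroxylase, which had the largest difference of the genes named below, and Bnip3, a mitophagy receptor. Their upstream bases are printed to show where the motif lies, with Dll3, which was lower in hypoxic cells, beside them. Sequences are from RefSeq on GRCm38.p6, read 5′ to 3′ along the gene's strand. RefSeq starts differ from the outer ends of the GENCODE genes given further on, and the windows of Ankrd37, P4ha2 and Dll3 lie inside those longer spans. Capitals mark ACGTG or GCGTG on either strand, overlapping matches joined.
Ankrd37, chr8:45999851-46000100, minus strand: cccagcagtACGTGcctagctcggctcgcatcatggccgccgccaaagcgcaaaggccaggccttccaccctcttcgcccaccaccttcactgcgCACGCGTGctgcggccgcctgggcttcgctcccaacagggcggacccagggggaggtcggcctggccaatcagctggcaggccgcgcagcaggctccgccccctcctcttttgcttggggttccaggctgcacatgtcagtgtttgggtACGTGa
Egln3, chr12:54203875-54204124, minus strand: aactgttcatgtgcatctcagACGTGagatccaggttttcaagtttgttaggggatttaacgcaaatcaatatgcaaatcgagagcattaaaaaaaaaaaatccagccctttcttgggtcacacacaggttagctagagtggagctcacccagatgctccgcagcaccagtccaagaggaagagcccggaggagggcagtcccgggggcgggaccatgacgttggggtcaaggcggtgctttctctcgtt
P4ha2, chr11:54100674-54100923, plus strand: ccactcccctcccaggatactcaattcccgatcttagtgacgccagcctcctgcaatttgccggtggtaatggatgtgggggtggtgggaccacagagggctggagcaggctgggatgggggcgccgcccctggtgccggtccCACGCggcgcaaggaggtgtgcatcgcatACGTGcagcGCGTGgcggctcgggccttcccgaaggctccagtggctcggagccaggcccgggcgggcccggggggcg
Bnip3, chr7:138909507-138909756, minus strand: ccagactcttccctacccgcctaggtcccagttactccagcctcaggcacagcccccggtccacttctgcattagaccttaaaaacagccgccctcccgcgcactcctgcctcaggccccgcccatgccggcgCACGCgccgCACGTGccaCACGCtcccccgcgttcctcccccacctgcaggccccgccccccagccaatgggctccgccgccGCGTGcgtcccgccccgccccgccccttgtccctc
Dll3, chr7:28301786-28302035, minus strand: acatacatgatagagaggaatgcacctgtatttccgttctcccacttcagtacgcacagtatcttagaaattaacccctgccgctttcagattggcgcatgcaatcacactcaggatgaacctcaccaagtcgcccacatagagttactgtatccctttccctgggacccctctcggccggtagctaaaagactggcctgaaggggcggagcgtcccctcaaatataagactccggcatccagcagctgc
Ankrd37 holds ACGTG at 2 separate sites, Bnip3 on both strands of a single palindromic site, and Egln3 and P4ha2 once each, and the Dll3 window holds neither form. Of all 32851 upstream windows of this length in the table, 16.6% held ACGTG and 38.6% held either form. Among the 9515 tested genes with a window, 25.5% held ACGTG and 62.7% either form, so a single match is common. ACGTG stood in 4 of the 5 rule genes with a window, in 7 of 11 and 1 of 13 with a window among the 14 genes each with the largest higher and lower differences. Either form stood in 5 of 5, 9 of 11 and 4 of 13 of these. Vegfa entered both counts only through its window inside the gene. A match is a string of letters and was not tested as a binding site.

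Hypoxic cells made up a larger share of the tumour cells under the skin than in the liver or brain. In brain 1, 155 of 2418 tumour cells were hypoxic, or 6.41% (exact 95% interval 5.47 to 7.46). In brain 2 it was 243 of 4060, or 5.99% (5.28 to 6.76). The liver libraries held 432 of 4114 (10.5%), 378 of 4189 (9.02%) and 413 of 4720 (8.75%). The subcutaneous libraries held 927 of 4150 (22.3%, 21.1 to 23.6), 1936 of 6276 (30.8%, 29.7 to 32.0) and 1297 of 4792 (27.1%, 25.8 to 28.3). These intervals cover counting error only. Every subcutaneous library lay above every liver library, and every liver library above both brain libraries.

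The site means were 6.20 ± 0.301% in brain (SD, n = 2), 9.42 ± 0.942% in liver (n = 3) and 26.8 ± 4.26% in subcutaneous tumours (n = 3). An exact permutation test of the F ratio over the 560 assignments of libraries to sites gave p = 0.00357. For each pair of sites the exact permutation p was 0.1, and these group sizes cannot give a smaller one. The subcutaneous mean was 17.3 percentage points above the liver mean and 20.6 above the brain mean.

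The order of liver and brain was not kept under every setting. Liver exceeded brain by 0.818 points at a threshold of 6 UMIs and by 0.121 at 10. When every tumour cell was reduced at random to 3000 UMIs (48 to 180 cells of each library were too shallow for this), 0.619 and 0.499% of brain cells, 0.370, 0.344 and 0.374% of liver cells and 6.80, 9.32 and 7.47% of subcutaneous cells still had 4 UMIs of the 6 genes. Liver then lay 0.196 points below brain instead of 3.23 above, and 0.282 above after thinning to 5000 UMIs. At a threshold of 2 UMIs after the same thinning the means were 5.91, 6.27 and 21.5% in brain, liver and subcutaneous tumours (exact permutation p = 0.0286 for the F ratio over the 3 sites). The excess in subcutaneous tumours was present under both. With tumour cells that carried 2 or more UMIs of host markers left out, which drops 667 to 2331 cells per library, the shares averaged 3.64% in brain, 7.24% in liver and 25.8% under the skin. With cells above 0.5% host marker UMIs left out, at most 60 per library, they were 6.19, 9.43 and 26.7%. The second of these settings was chosen after seeing the data.

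**Figure D1:**
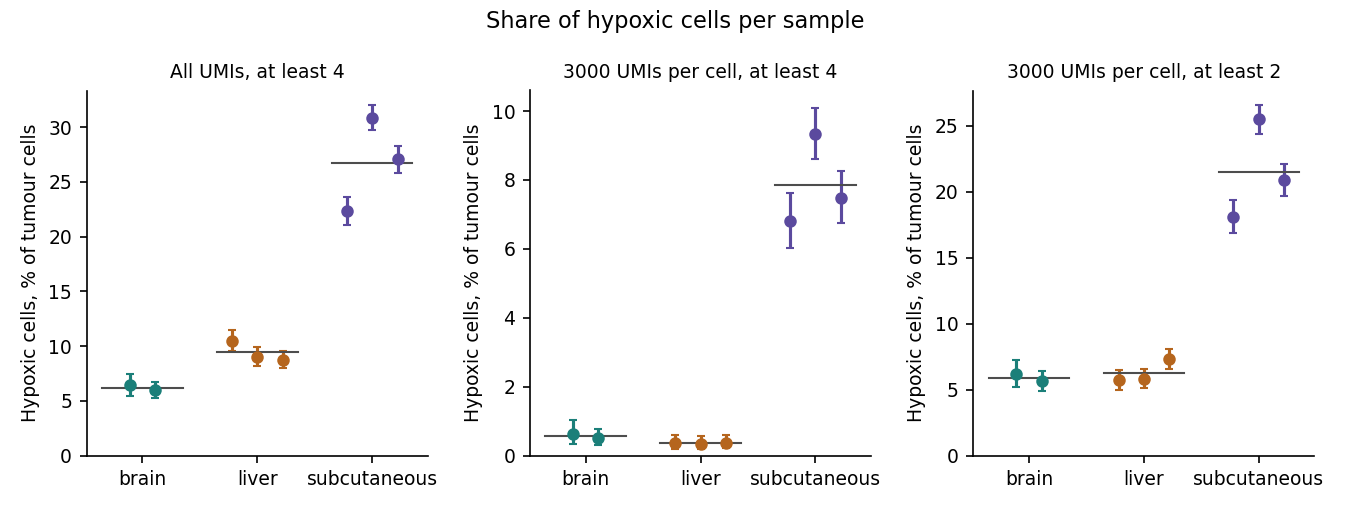
Share of tumour cells called hypoxic in each library, in percent, with at least 4 UMIs of the 6 genes over all UMIs (left), and with at least 4 (middle) or at least 2 (right) after thinning each cell to 3000 UMIs. Points are libraries with exact 95% binomial intervals and lines are site means. The 3 subcutaneous libraries lie above all others in each panel, while the liver libraries lie above both brain libraries on the left, below both in the middle and among them on the right.

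The hypoxic cells of the 3 sites also differed in how far above the threshold they lay. In brain 1 and 2, 43.9 and 49.8% of hypoxic cells had exactly 4 UMIs, as did 43.3, 44.7 and 49.2% in liver. In subcutaneous tumours 21, 19.1 and 21.4% did. At the other end, 5.81 and 6.17% of hypoxic cells in brain, 5.56, 6.35 and 3.63% in liver and 36.1, 35.6 and 35.1% in subcutaneous tumours had 10 or more UMIs. The median sum was 5 in each brain and liver library and 7 in each subcutaneous library. As a share of all tumour cells, those with 10 or more UMIs averaged 0.371% in brain, 0.491% in liver and 9.52% in the subcutis.

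The rule marks a range of a score, not a separate type of cell. Just below the threshold, at 3 UMIs, lay 135 and 230 cells in brain, 381, 346 and 405 in liver and 352, 562 and 432 in subcutaneous tumours. Just inside it, at 4 UMIs, lay 68 and 121, 187, 169 and 203, and 195, 369 and 277. Counts fell smoothly across the threshold in brain and liver, and had a long upper tail in subcutaneous tumours. Hypoxic cells held 32.9 and 30.3% of all rule-gene UMIs of the tumour cells in brain, 39.5, 36.5 and 34.0% in liver, and 75.0, 78.7 and 76.0% in subcutaneous tumours.

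**Figure D2:**
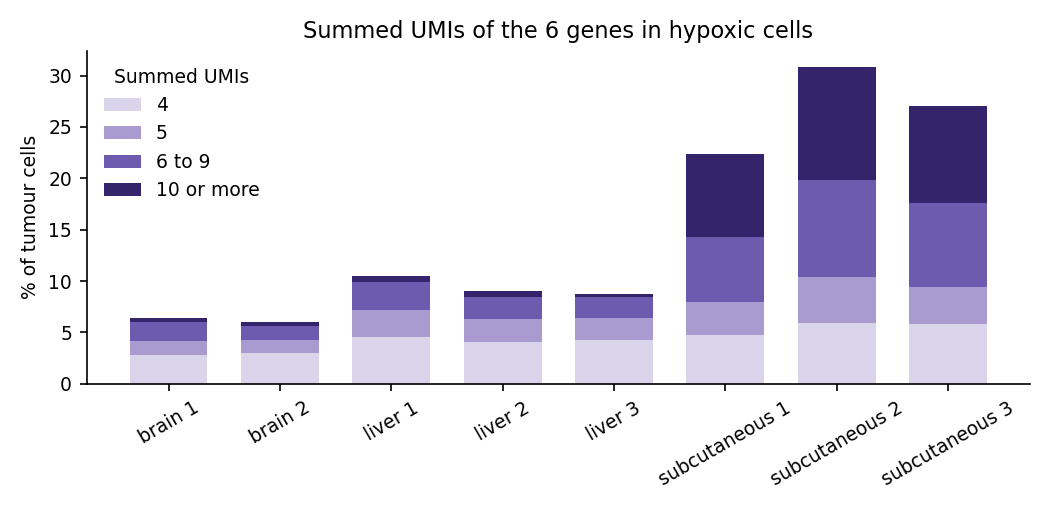
Hypoxic cells of each library as a percentage of its tumour cells, stacked by the summed UMIs of the 6 genes (4, 5, 6 to 9, and 10 or more, from light to dark). Cells with 10 or more UMIs hold 35.1 to 36.1% of each subcutaneous bar and 3.63 to 6.35% of each brain or liver bar.

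The lineage of these cells was checked on Chga, a neuroendocrine granule protein, which stood at 330 to 603 CPM in the hypoxic cells of the 8 libraries. The 4 leading genes of the score were all present in each library, as were Car9 and Adm at lower levels. Ndrg1, a stress-responsive gene of the N-myc downregulated family, gave 48.7 and 50.5% of the hypoxic cells' score in brain, 29.1 to 40.9% in liver and 30.9 to 37.9% in subcutaneous tumours. Ankrd37 gave 25.7 to 39.6% over the 8 libraries. Egln3 gave 8.35 and 9.68% in brain and 19.3 to 24.8% elsewhere, and Vegfa, the main vessel growth factor, 5.79 to 12.4%. Brain hypoxic cells thus rested more on Ndrg1 and less on Egln3 than those of the other sites. With Ndrg1 left out of the sum the shares averaged 1.71, 4.23 and 18.2% for brain, liver and subcutis.

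The rule genes are given in CPM of the summed cells, in hypoxic cells and in the same number of other tumour cells of the library matched for UMI total within 10%. Vegfa (chr17:46016993-46032369, minus strand) stood at 45.3 and 25.6 CPM in brain, 37.6, 24.0 and 20.5 in liver and 106, 59.1 and 58.4 in subcutaneous hypoxic cells, against 2.97 to 9.62 in the matched cells. Egln3 (chr12:54178981-54203860, minus strand) stood at 32.6 and 38.5, at 72.3, 68.0 and 70.0, and at 167, 213 and 201 CPM, against 7.71 to 22.1. Subcutaneous hypoxic cells held the highest values of both.

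Carbonic anhydrase 9, the membrane enzyme encoded by Car9 (chr4:43506966-43513729, plus strand), set subcutaneous tumours apart most clearly. It was detected in 0.645 and 3.70% of hypoxic cells in brain, 1.62, 3.17 and 1.21% in liver and 14.6, 10.1 and 11.5% in subcutaneous tumours. Its level was 0.453 and 3.82, 1.06, 3.02 and 1.20, and 20.9, 16.3 and 18.8 CPM in these libraries, and at most 0.658 CPM in matched cells. Adm, which encodes the vessel-dilating peptide adrenomedullin (chr7:110627661-110629820, plus strand), ranged from 2.94 to 19.2 CPM in hypoxic cells and from 0 to 0.647 in matched cells.

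Some of this signal also came from cells outside the tumour class. Of 2078 non-tumour cells, 119 had at least 4 UMIs of the 6 genes (5.73%, exact 95% interval 4.77 to 6.81), at a median depth of 4092 UMIs. By library this was 3.44 and 6.55% in brain, 0, 1.19 and 1.11% in liver and 17.6, 6.92 and 5.88% in subcutaneous tumours. In subcutaneous 1, 17.2% of these cells held Adm. The class may also hold tumour cells with few reporter UMIs. At a reporter threshold of 0.1%, 6362 instead of 6276 cells counted as tumour cells in subcutaneous 2, which held 130 non-tumour cells. Tumour cells with few reporter UMIs, free RNA and expression by host cells cannot be told apart in these shares.

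Hypoxic cells were the deeper cells. A threshold on raw UMIs favours deep cells, so depth and genes detected are given as a description without a test. Their median UMI total exceeded that of the other tumour cells by 3734 on average over libraries, in 8 of 8 libraries. Genes detected were 642 higher in 8 of 8. The mitochondrial share, in cells not matched for depth, was 0.190 points lower in 8 of 8 (exact sign-flip permutation p = 0.00781, the smallest possible). All comparisons below therefore use the matched cells, in which the median depth was 13244 against 13236 UMIs in brain 1 and 9911 against 9907 in subcutaneous 2. Between 4 and 20 hypoxic cells per library had no match and were left out.

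UMI counts were summed over the hypoxic and over the matched cells of each library, and 12175 genes were tested with edgeR's quasi-likelihood test, with the library as a block and Benjamini-Hochberg adjustment. Positions are GENCODE M21 on GRCm38, and log2 values are differences of hypoxic minus matched cells unless a contrast of sites is named. At an adjusted p under 0.05, 1589 genes were higher in hypoxic cells (13.1%) and 1584 lower (13%). All genes tested were read in the same cells that the rule chose. The median over all genes was 0.00. The subcutaneous libraries weighed most: 839 genes were higher and 862 lower without subcutaneous 2, and 896 and 945 without subcutaneous 3. In fits of each site's own difference, 1.26% of genes were higher and 0.945% lower in brain (2.20% in all), 1.27 and 1.40% in liver (2.68%) and 22.4 and 21.5% in subcutaneous tumours (43.9%), against 26.1% over all libraries. Subcutaneous tumours had the most cells and the highest scores, so these counts are no measure of how many genes respond.

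Enzymes that hydroxylate and fold collagen held the largest difference. Of 10 measured genes of this list, 7 were higher and none lower, against 13.1% and 13% of all tested genes, with a median log2 difference of 1.26. P4ha2 (chr11:54100095-54131665, plus strand), the alpha subunit of a collagen prolyl hydroxylase, stood at 14 and 16.8 CPM in brain, 5.43, 5.71 and 6.50 in liver and 59.8, 59.2 and 61.3 in subcutaneous hypoxic cells. In matched cells it was 0.457 and 0.297, 0.533, 1.01 and 1.38, and 3.14, 2.97 and 3.23 CPM. Hypoxic and matched cells did not overlap at any site, and the log2 difference was 4.15 ± 0.147 (SE, adjusted p = 2.46e-11). The brain comparators held only 1 UMI in each library, so no fold is given for brain.

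The other alpha subunit, P4ha1 (chr10:59323296-59373304, plus strand), was at 30.8 and 36.5, 31.1, 37.1 and 36.8, and 119, 143 and 133 CPM in hypoxic cells and at 11 to 33.9 in matched cells, with a log2 difference of 1.86 ± 0.227 (adjusted p = 0.00159). Ero1l, the oxidase that drives disulfide formation in the endoplasmic reticulum (chr14:45283087-45318771, minus strand), was higher by 2.05 ± 0.317 (adjusted p = 0.00392). The lysyl hydroxylases Plod1 and Plod2 were higher by 1.40 ± 0.258 (adjusted p = 0.00762) and 1.94 ± 0.198 (adjusted p = 0.000216). Loxl2, a lysyl oxidase, was higher by 0.67 ± 0.140 (adjusted p = 0.00344). Lox itself differed by 0.05 and did not pass. Serpinh1, the collagen chaperone, read 1.13 without passing, and all 38 of its UMIs in liver 2 hypoxic cells came from 1 cell.

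Glycolytic enzymes were higher almost throughout. Of 18 genes, 16 were higher and none lower, against 13.1% and 13% of all tested genes. The median was 0.80, and Pfkfb4 and Pfkm did not pass. By site, 14 of the 18 were higher in brain, 10 in liver and 16 under the skin, against 1.26, 1.27 and 22.4% of all tested genes. Pgk1, the first ATP-yielding enzyme of the pathway (chrX:106187100-106203699, plus strand), stood at 490 and 598 CPM in brain, 515, 565 and 617 in liver and 1367, 1627 and 1525 in subcutaneous hypoxic cells. Its matched cells held 238 and 280, 364, 414 and 460, and 402, 565 and 487. The groups did not overlap within any site, and the log2 difference was 1.06 ± 0.205 (adjusted p = 0.00955).

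Aldoa, the main aldolase, rose by 1.54 ± 0.240 (adjusted p = 0.00403), and Pfkfb3, which makes the activator of phosphofructokinase, by 2.08 ± 0.227 (adjusted p = 0.000908). Hexokinase 2 (Hk2), which traps glucose in the cell, was at 7.70 and 6.47, 1.85, 1.01 and 1.54, and 34.2, 17.5 and 18.6 CPM, against 0.133 to 4.11 in matched cells. Its log2 difference was 3.89 ± 0.373 (adjusted p = 0.000287), and in liver alone 1.79 ± 0.561, which did not pass (adjusted p = 0.0798). Liver 1 and liver 2 comparators held 1 and 3 UMIs of Hk2. Gapdh, the enzyme often used as a reference, was higher by 0.37 ± 0.109 (adjusted p = 0.0415).

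Sugar import and lactate export moved with them. The glucose transporter Slc2a1 was higher by 1.24 ± 0.217 (adjusted p = 0.00630) and the lactate exporter Slc16a3 by 1.25 ± 0.173 (adjusted p = 0.00261). Slc16a3 stood at 88.8 and 136, 83.2, 111 and 123, and 269, 347 and 321 CPM in hypoxic cells. Slc2a3 and Slc16a1 did not pass, at 0.13 and 0.07. In all, 3 of the 5 transport genes were higher, against 13.1% of all tested genes, with a median of 0.91.

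Genes that adjust mitochondria to low oxygen were higher for 10 of 12 members, none lower. The median was 1.06, and 13.1% and 13% of all tested genes were higher and lower. Bnip3 (chr7:138890836-138909519, minus strand) stood at 262 and 281 CPM in brain, 284, 225 and 268 in liver and 910, 998 and 882 in subcutaneous hypoxic cells. Matched cells held 50.7 and 55.8, 112, 105 and 113, and 139, 188 and 163 CPM. Brain and liver hypoxic cells thus reached like levels from different baselines, and the log2 difference was 1.99 ± 0.241 over all libraries (adjusted p = 0.00156). Pdk1, which shuts off pyruvate entry into the citric acid cycle, was higher by 1.16 ± 0.204 (adjusted p = 0.00647). Higd1a, a respiratory supercomplex factor, was higher by 1.38 ± 0.214 (adjusted p = 0.00396), and the mitochondrial adenylate kinase Ak4 by 1.84 ± 0.240 (adjusted p = 0.00197).

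The electron transport chain went the other way by less. Of 81 nuclear genes for oxidative phosphorylation, 54 were lower and 3 higher, against 13% and 13.1% of all tested genes. The median was -0.15. Ndufs5, a complex I subunit, fell by 0.34 ± 0.0460 (adjusted p = 0.000131) and Ndufa4, a cytochrome oxidase subunit, by 0.41 ± 0.0998 (adjusted p = 0.0195). The 3 higher were Ndufa4l2, Cox6a2 and Cox7a2l. Ndufa4l2, the hypoxia-induced relative of Ndufa4 that also belongs to the mitochondrial list, was higher by 1.73 ± 0.145 (adjusted p = 4.16e-07). Cox6a2, a cytochrome oxidase subunit best known from muscle, was higher by 1.48 ± 0.271 (adjusted p = 0.000902). By site, 4 of the 81 genes were lower in brain, 19 in liver and 69 in the subcutis. Of all tested genes, 0.945, 1.40 and 21.5% were lower at these sites.

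**Figure D3:**
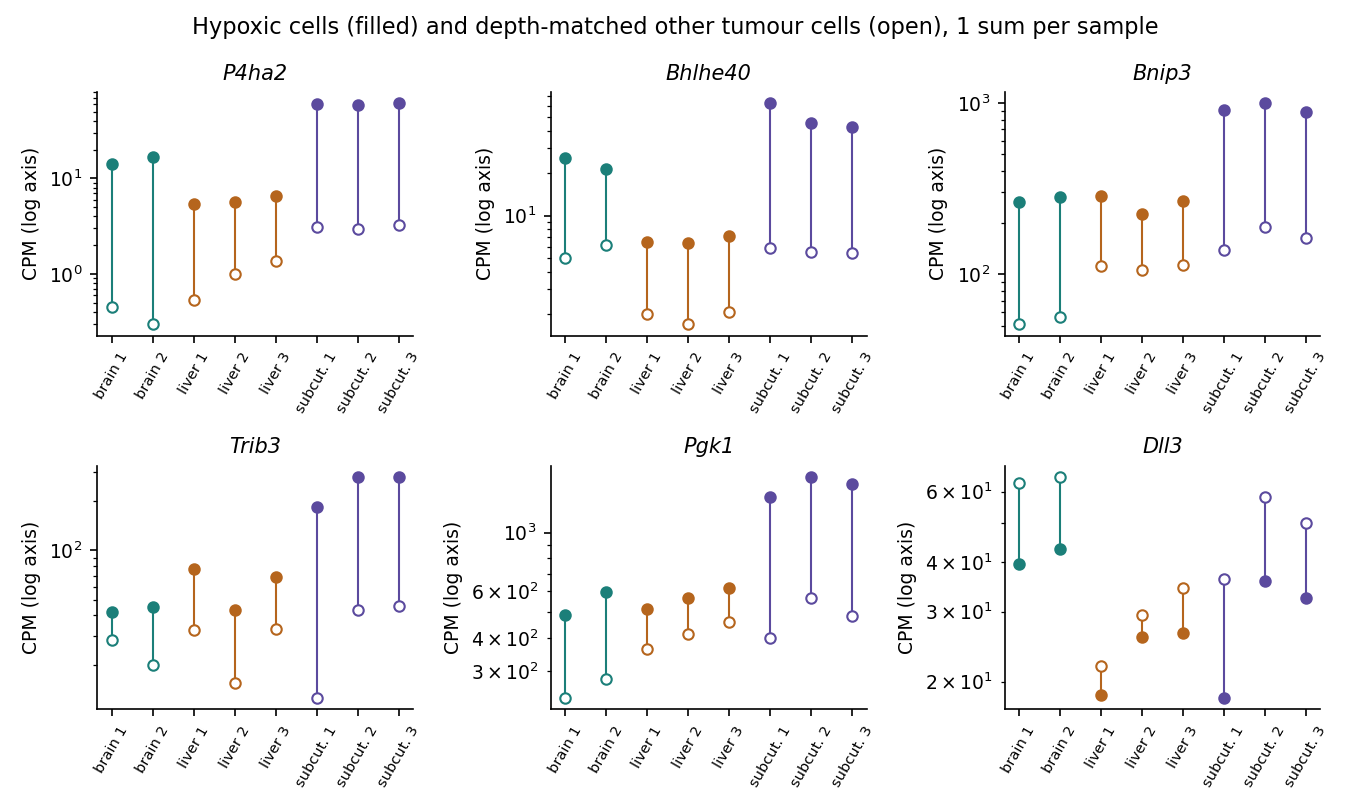
Level of 6 genes in each library, in CPM on a log axis, for hypoxic cells (filled) and depth-matched other tumour cells (open). P4ha2, Bhlhe40, Bnip3, Trib3 and Pgk1 are higher in the hypoxic cells of all 8 libraries, and Dll3 is lower in all 8.

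Of the 14 genes outside the rule with the largest higher differences in all 8 libraries and a mean of at least 10 CPM, 12 belong to the lists described here. The other two were Smtnl2, a smoothelin-like protein, at 4.08 and 9.71, 8.87, 8.56 and 8.04, and 26.0, 47.1 and 40.3 CPM in hypoxic cells (1.99 ± 0.319, adjusted p = 0.00438), and the uncharacterized 2900055J20Rik (1.89 ± 0.191, adjusted p = 0.000536). Pfkp, the platelet phosphofructokinase, was the glycolytic gene among the 14 beside Pfkfb3, at 41.7 and 72.4, 33.9, 39.8 and 48.9, and 123, 196 and 166 CPM (1.72 ± 0.253, adjusted p = 0.00326).

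Secreted signals were mixed. Of 10 measured genes of the vascular list (Vegfa and Adm not among them), 6 were higher and none lower. The median was 0.76, and 13.1% and 13% of all tested genes were higher and lower. Stc2, a secreted glycoprotein, stood at 9.06 and 5.0, 8.08, 3.53 and 7.53, and 14.5, 35.2 and 38.9 CPM in hypoxic cells and at 0.925 to 4.74 in matched cells (2.85 ± 0.207, adjusted p = 1.23e-05). Angptl6, an angiopoietin-like factor, was higher by 1.15 ± 0.253 (adjusted p = 0.0153) and placental growth factor Pgf by 1.14 ± 0.296 (adjusted p = 0.00951). Vegfb and Angpt2 did not pass, at 0.03 and -0.01.

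A list of regulators and metabolic genes of the response was higher in 15 of 17 cases and lower in 1, with a median of 0.55. Of all tested genes 13.1% were higher and 13% lower. Bhlhe40, a repressor induced by HIF (chr6:108660629-108666925, plus strand), stood at 25.4 and 21.2 CPM in brain, 6.49, 6.38 and 7.19 in liver and 62.6, 45.2 and 42.2 in subcutaneous hypoxic cells. Matched cells held 5.02 and 6.23, 2.00, 1.69 and 2.07, and 5.92, 5.50 and 5.4. No group overlapped within a site, and liver hypoxic cells lay close to brain and subcutaneous comparators (2.83 ± 0.174, adjusted p = 6.98e-06). Selenbp1, a selenium-binding methanethiol oxidase (chr3:94933056-94944758, plus strand), stood at 8.15 and 16.5, 6.22, 8.73 and 4.96, and 77.4, 68.8 and 56.5 CPM, against 2.70 to 4.92 (3.38 ± 0.386, adjusted p = 0.00121). Plin2, a lipid droplet protein, was the 1 lower member (-0.29 ± 0.0751, adjusted p = 0.00834).

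Transcripts of the oxygen sensor itself mostly did not pass. Hif1a, whose protein is controlled by its breakdown, lay between 40.0 and 49.8 CPM in hypoxic cells and between 36.2 and 54.3 in matched cells, a log2 difference of 0.00 ± 0.0488 (adjusted p = 0.993). Egln1, the main prolyl hydroxylase, was the only one of 8 measured sensor genes to pass, at 0.86 ± 0.112 (adjusted p = 0.000287). Vhl and Arnt did not pass, at 0.19 and 0.18. Over all tested genes 26.1% passed in either direction. HIF protein was not measured.

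Genes of the amino acid stress response, which ATF4 and related factors drive when amino acids run short or the endoplasmic reticulum is strained, were higher for 16 of 16 members. The median was 0.82, and 13.1% of all tested genes were higher. Trib3, a pseudokinase that restrains this response (chr2:152337422-152344032, minus strand), stood at 41.7 and 45 CPM in brain, 76.5, 43.0 and 69.1 in liver and 185, 283 and 280 in subcutaneous hypoxic cells. Matched cells held 28.3 and 19.9, 32.8, 15.5 and 32.9, and 12.5, 43.1 and 45.6. Hypoxic cells were higher in 8 of 8 libraries, and the groups did not overlap within any site (2.13 ± 0.383, adjusted p = 0.00714).

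Among the others of this list, the stress protein Nupr1 was higher by 2.23 ± 0.445 (adjusted p = 0.0106), the cystine importer Slc7a11 by 1.53 ± 0.182 (adjusted p = 0.000244), and the mTORC1 inhibitor Sesn2 by 1.73 ± 0.233 (adjusted p = 0.00196). Ddit3, the factor CHOP, was higher by 1.10 ± 0.142 (adjusted p = 0.00152). Atf4 itself was higher by 0.44 ± 0.0888 (adjusted p = 0.00774). By site, 2 of the 16 passed in brain, 9 in liver and 16 in the subcutis. Of all tested genes, 1.26, 1.27 and 22.4% were higher at these sites. Asparagine synthetase, Asns, was at 121 and 135 CPM in brain hypoxic cells against 126 and 125, and at 185, 276 and 265 against 81.7, 148 and 147 in subcutaneous tumours.

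Of 14 endoplasmic reticulum chaperones and stress genes, 2 were higher (Dnajb9 and Herpud1), a share near the 13.1% of all tested genes, with a median of 0.40. In the fit of subcutaneous tumours 12 were higher, where 22.4% of all genes were. Creld2, a secreted stress protein, stood at 45.3 and 46.8, 58.1, 67.0 and 61.3, and 161, 149 and 125 CPM, against 39.3 and 42.7, 58.2, 64.0 and 53.6, and 54.1, 74.1 and 87.1. Immediate early genes were higher for 10 of 13 members, with a median of 0.45, among them Atf3 (1.26 ± 0.255, adjusted p = 0.0111) and Fos (0.70). All 13 passed in subcutaneous tumours and none in brain or liver.

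Neuroendocrine genes were mostly lower, by small amounts. Of 18 genes, 10 were lower and 2 higher, against 13% and 13.1% of all tested genes, with a median of -0.16. Dll3 (chr7:28293553-28302238, minus strand) stood at 39.4 and 43.2 CPM in brain, 18.5, 25.9 and 26.5 in liver and 18.2, 35.9 and 32.5 in subcutaneous hypoxic cells. Matched cells held 63.0 and 65.5, 21.9, 29.4 and 34.3, and 36.2, 58.2 and 50. It was lower in 8 of 8 libraries, although liver values of both kinds overlapped, with a log2 difference of -0.59 ± 0.0698 (adjusted p = 3.32e-05). In liver alone it did not pass (-0.29, adjusted p = 0.108).

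Calca, the calcitonin and CGRP gene, was lower by 0.48 on the log2 scale (-0.48 ± 0.0904, adjusted p = 0.00407), from 124 and 140 to 103 and 98.3 CPM in brain and from 102, 82.1 and 78.5 to 56.7, 48.7 and 49.7 in subcutaneous tumours. The prohormone convertase Pcsk1 was lower by -0.45 ± 0.0819 (adjusted p = 0.000859) and the granule protein Chga by -0.19 ± 0.0371 (adjusted p = 0.00136). Scg2, a granin, and Ncam1 were the 2 higher members, at 0.79 and 0.21.

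The other lower genes chosen by size showed no single role. Zeb2, a zinc finger repressor of epithelial genes, fell by 0.59 ± 0.0886 (adjusted p = 0.000203), and Tagln3, a neuronal calponin, by 0.51 ± 0.0952 (adjusted p = 0.00559). Svbp, the partner of the tubulin carboxypeptidases, fell by 0.49 ± 0.0572 (adjusted p = 2.40e-05). Ada, adenosine deaminase, fell by 0.48 ± 0.0910 (adjusted p = 0.00110). Sfrp5, a secreted Wnt antagonist, fell by 0.49 ± 0.113 (adjusted p = 0.0154). The remaining ones were Tmem171 at -0.64, Ttc28 at -0.61, Thsd7a and Shf at -0.53 each, Vat1l at -0.50, Zcchc12 at -0.47 and Lrpprc, a regulator of mitochondrial mRNA, at -0.47. No lower named gene reached a log2 difference of -1, whereas all 14 higher named genes exceeded 1. Of the 14 lower genes, 8 did not pass in a fit without the library block, among them Zeb2, Svbp, Ada and Sfrp5.

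Few markers of other cells passed between hypoxic and matched cells. Of 11 macrophage genes 1 was lower, and of 5 glial genes and 3 neutrophil genes none passed. Of 3 endothelial genes 1 was higher, as was 1 fibroblast gene. Of all tested genes 13.1% were higher and 13% lower. Summed levels still differed within libraries, in both directions. Macrophage markers stood at 381 CPM in hypoxic against 1013 in matched cells of brain 1, but were higher in hypoxic cells of brain 2. In brain 2, glial markers stood at 259 against 123 CPM and the hepatocyte list at 612 against 10.1. Single cells decided several host genes: S100a8, a neutrophil calgranulin, had 197 of its 199 UMIs in brain 1 hypoxic cells in 1 cell, and 951 of 952 in liver 2 matched cells in 1 cell.

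Cycling was compared after thinning each cell. Cells with at least 4 UMIs of 20 G2/M genes made up 40.4% of hypoxic and 42% of matched cells, a difference of -1.54 ± 5.61 points (SD over 8 libraries), lower in 6 and higher in 2 (exact sign-flip permutation p = 0.445). It was -6.12 points in brain, 3.43 in liver and -3.45 in the subcutis. Cells with at least 4 UMIs of the 18 S-phase genes were fewer among hypoxic cells, 88.3 against 93.0%, lower in 8 of 8 libraries (exact sign-flip permutation p = 0.00781). The S-phase share was not among the planned tests. Between 83.7 and 96.1% of cells of either kind reached that threshold in each library, so it hardly sets S-phase cells apart. Of the S-phase genes 6 were lower (13% of all tested genes were) and none higher. Rrm2, a ribonucleotide reductase subunit, was at -0.28 ± 0.0703 (adjusted p = 0.0138).

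The difference between hypoxic and matched cells itself differed between sites for 1573 genes (12.9%, edgeR interaction of state and site at an adjusted p under 0.05). Sums were also simulated in which only some genes were given such a difference. More of this test's calls than its nominal level allows fell on the other genes, so its counts may be too high. Subcutaneous tumours had the larger differences. Against liver, 749 genes (6.15%) had a more positive difference in subcutaneous tumours and 812 (6.67%) a more negative one, 12.8% in all. Against brain it was 317 (2.60%) and 445 (3.66%), 6.26% in all. Liver and brain differed in 17 (0.140%) and 35 (0.287%), 0.427% in all.

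Of the 18 glycolytic genes, 15 had a larger difference in subcutaneous tumours than in liver, and 8 larger than in brain, while 6 were smaller in liver than in brain. The glycolytic median was 0.87 in brain, 0.31 in liver and 1.19 in the subcutis. Pgk1 differed by 1.08 ± 0.0543 in brain, 0.43 ± 0.0359 in liver and 1.64 ± 0.0331 in the subcutis (interaction adjusted p = 1.98e-21). Liver matched cells already held more Pgk1 than brain matched cells, at 364 to 460 against 238 and 280 CPM, and hypoxic cells of these sites overlapped. Fam162a, a mitochondrial HIF target with a role in cell death, differed by 0.97, 0.65 and 1.77 (interaction adjusted p = 5.38e-20). Gpi1, glucose phosphate isomerase, differed by 0.79, 0.29 and 1.33 (1.33e-18, adjusted). Espn, an actin-bundling protein (chr4:152120331-152152371, minus strand), was at 101 and 93.8, 113, 112 and 99.4, and 257, 236 and 210 CPM in hypoxic cells and at 36.5 and 46.0, 79.8, 73.5 and 66.0, and 58.6, 49.7 and 49.3 in matched cells (5.38e-20, adjusted). In each of these genes the liver difference was the smallest.

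For the amino acid stress list, 12 of 16 genes had a larger difference in subcutaneous tumours than in liver and 10 larger than in brain, and none separated liver from brain. The medians were 0.28, 0.41 and 1.24. For oxidative phosphorylation, 49 of 81 genes had a more negative difference in subcutaneous tumours than in liver and 39 than in brain. Immediate early genes had a larger difference in 8 of 13 against liver and 5 against brain. Over all tested genes, 6.15% had a more positive and 6.67% a more negative difference against liver. Against brain these shares were 2.60 and 3.66%. Trib3 and Nupr1 did not pass the interaction test (adjusted p = 0.0708 and 0.0521), although their subcutaneous differences were the largest of the 3 sites.

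**Figure D4:**
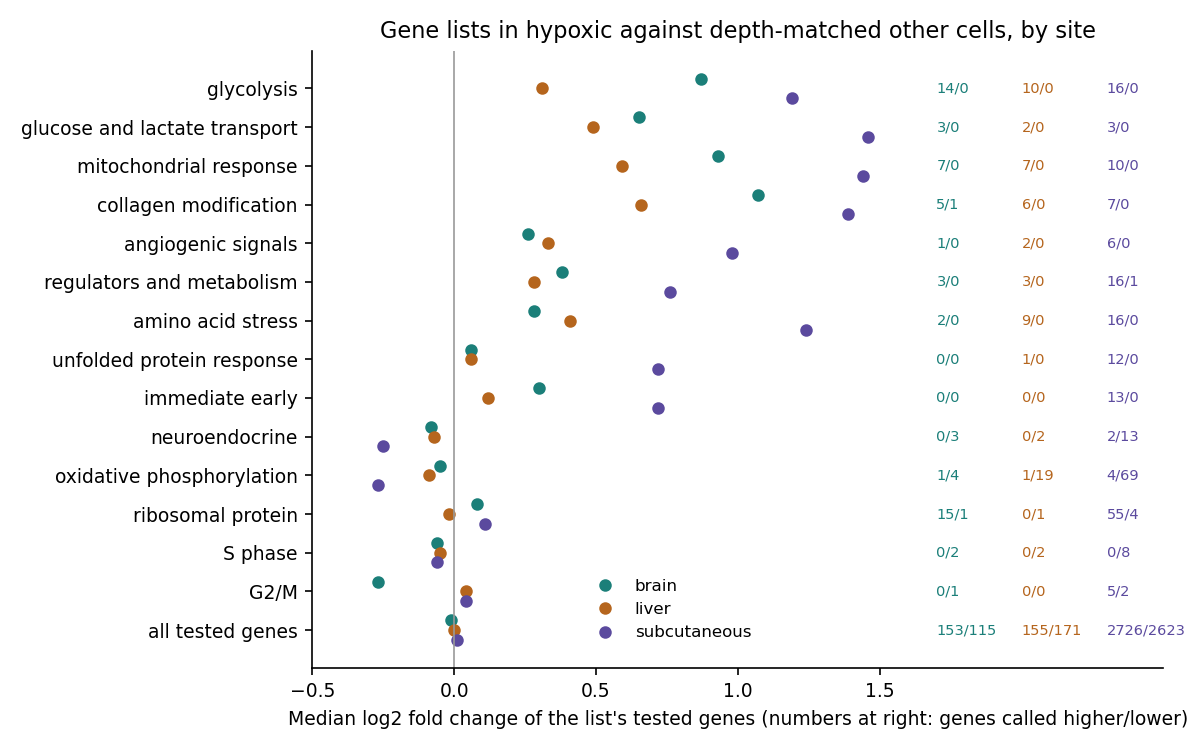
Median log2 difference between hypoxic and matched cells of each gene list, by site, with the number of genes called higher and lower. The hypoxia lists lie above 0 at every site and are lowest in liver for the glycolytic, mitochondrial and collagen lists, at 0.31, 0.59 and 0.66, and the oxidative phosphorylation list reaches -0.27 in subcutaneous tumours.

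Because scores were higher in subcutaneous tumours, the fit was repeated with cells of exactly 4 or 5 UMIs. This was chosen after seeing the data. Of 11534 tested genes, 0.720% were then higher and 0.633% lower in brain (1.35% in all), 0.416 and 0.434% in liver (0.850%) and 5.71 and 6.39% in subcutaneous tumours (12.1%), and 253 genes (2.19%) had a difference that varied between sites. Pgk1 was still 0.70, 0.30 and 1.01 higher in brain, liver and subcutaneous tumours (interaction adjusted p = 1.50e-11). Fam162a kept its interaction (adjusted p = 2.32e-14), as did Gpi1 (1.31e-13, adjusted) and Espn (2.95e-08, adjusted). All 16 amino acid stress genes passed in subcutaneous tumours, 4 in liver and 2 in brain, and 54, 0 and 3 oxidative phosphorylation genes were lower. At scores of 4 and 5 the difference of Pgk1 was thus still largest in subcutaneous and smallest in liver tumours. Equal sums are not equal shares of a cell's UMIs, since these cells differed in depth. Their median UMI totals were 12349 and 11472 in brain, 16999, 14042 and 12517 in liver and 10494, 10097 and 10609 in subcutaneous tumours. Whether depth bears on this order was not tested.

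Summed levels of the hypoxia lists were higher at higher scores at each site. In subcutaneous tumours the 62 genes of the 5 hypoxia lists, which exclude the rule genes, summed to 10032 ± 1215 CPM (SD over libraries) in cells with none of the 6 genes, 17237 ± 1415 at 4 UMIs and 34064 ± 181 at 10 or more. In liver these were 10085 ± 167, 11216 ± 763 and 13953 ± 2385, and in brain 7464 ± 295, 10093 ± 1573 and 24718 ± 1134. Even the 24 brain cells at 10 or more UMIs thus lay well above the 63 liver cells of that score. Those liver cells were also deeper, with medians of 26472, 18590 and 20821 UMIs against 10248 and 7746 in brain. P4ha2 went from 0.996 to 145 CPM in brain, from 0.603 to 21.3 in liver and from 1.96 to 111 in subcutaneous tumours between the same ends.

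Trib3 was high in brain at the top scores alone. It was 19.4 CPM at a score of 0, 29.5 at 4 and 40.4 at 6 to 9, then 216 at 10 or more. In subcutaneous tumours it was 25.4, 96.3, 208 and 402 at these scores, and in liver 21.1, 42, 80.1 and 120. Dll3 went from 88.0 to 27.3 CPM in brain, 32.9 to 18.5 in liver and 52.4 to 19.1 in subcutaneous tumours. These bins are a description of the same cells that the rule ranked, with no test. Not every gene followed the score: the glucose transporter Slc2a1 read 68.3 CPM in brain at a score of 0, 61.3 at 4, 59.5 at 6 to 9 and 189 at 10 or more. Depth differed between bins, with a median of 7746 UMIs in the top bin of brain 2 against 14444 at 6 to 9, and 26472 against 17721 in liver 1.

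**Figure D5:**
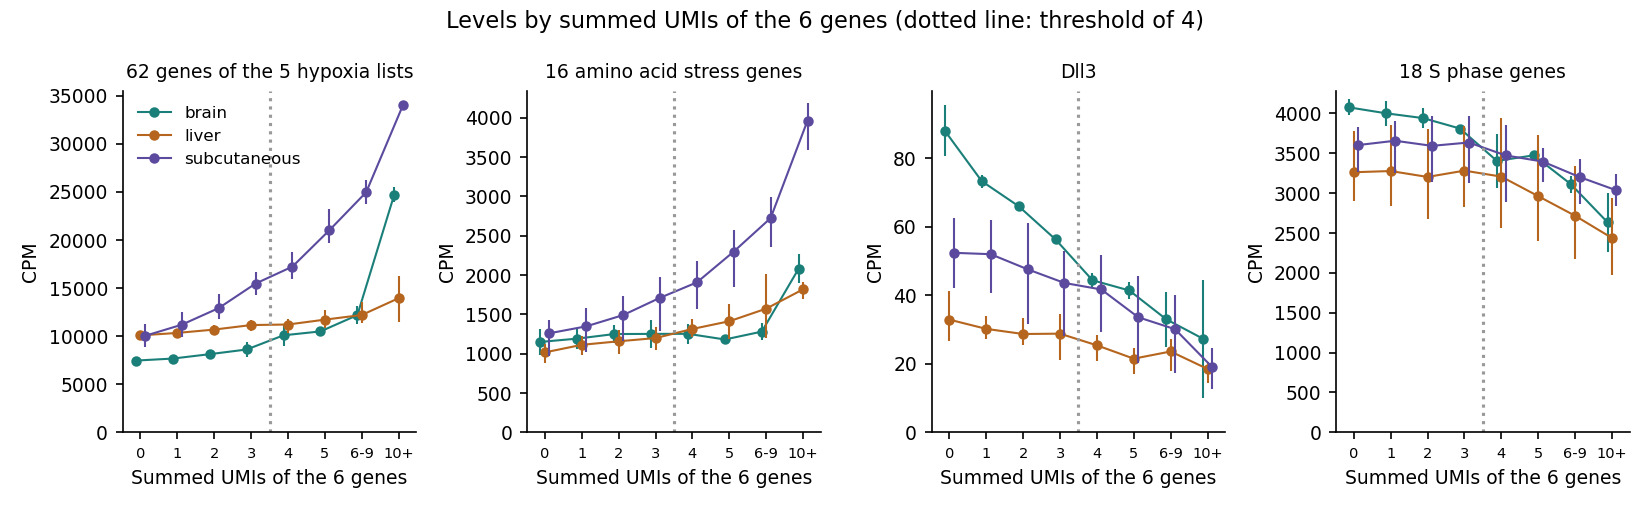
Level in CPM by summed UMIs of the 6 rule genes for the 62 genes of the hypoxia lists, the 16 amino acid stress genes, Dll3 and the 18 S-phase genes, averaged over the libraries of each site, with vertical lines from the lowest to the highest library and a dotted line at the threshold of 4. From the first to the last bin the hypoxia genes go from 10032 to 34064 CPM in subcutaneous tumours and from 10085 to 13953 in liver, and Dll3 is lower in the last bin than in the first at all 3 sites.

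Hypoxic cells of different sites were also compared with each other, over 11805 genes, with 3 or 2 libraries a group. The contrasts with subcutaneous tumours compare cells of unequal score, with a median of 7 UMIs there and 5 in liver and brain. Subcutaneous against liver, 394 genes were higher (3.34%) and 161 lower (1.36%), 4.70% in all. Among the matched cells, with 11682 genes tested, 44 were higher (0.377%) and 36 lower (0.308%), 0.685% in all. Subcutaneous against brain, 468 were higher (3.96%) and 441 lower (3.74%), 7.70% in all, and among matched cells 152 (1.30%) and 301 (2.58%), 3.88% in all. Liver against brain, 162 were higher (1.37%) and 374 lower (3.17%), 4.54% in all, and among matched cells 375 (3.21%) and 598 (5.12%), 8.33% in all. These counts rest on few libraries: subcutaneous against liver, 1024 genes were called without subcutaneous 1, 274 without subcutaneous 2, 325 without subcutaneous 3, 281 without liver 1 and 192 without liver 2. Subcutaneous against brain, 2048 were called without subcutaneous 1, 392 and 418 without subcutaneous 2 or 3, and 206 and 201 without brain 1 or 2. Liver against brain, 993 were called without subcutaneous 1, 216 and 206 without liver 1 or 2, and 107 and 131 without brain 1 or 2.

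Hypoxia genes led the difference between subcutaneous and liver hypoxic cells, with Hk2 the largest at 3.87 ± 0.343 (adjusted p = 6.82e-05). Summed levels of the hypoxia lists were higher at higher scores, and subcutaneous hypoxic cells had the higher scores. Site and score are thus not separated in the contrasts of hypoxic cells below. With cells of 4 or 5 UMIs only, 132 genes were called instead of 555. P4ha2, Bhlhe40, Selenbp1 and Ffar4 were taken up here because earlier results of these data had them higher in subcutaneous than in liver tumour cells, so their direction is no independent evidence. P4ha2 was higher in subcutaneous hypoxic cells by 3.28 ± 0.144 on the log2 scale (adjusted p = 3.36e-07), against 1.60 among matched cells, which did not pass (adjusted p = 0.0770). Bhlhe40 was higher by 2.82 ± 0.193 (adjusted p = 1.16e-05), and by 1.44 among matched cells (adjusted p = 0.0269). Selenbp1 was higher by 3.27 ± 0.241 (adjusted p = 1.77e-05), and by 0.50 among matched cells (adjusted p = 0.398). Ffar4, a receptor for long-chain fatty acids, was higher in both kinds of cells, by 2.19 ± 0.135 (adjusted p = 8.58e-06) and 1.35 (adjusted p = 0.00181).

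Genes lower in subcutaneous than in liver hypoxic cells were of another kind. Tmprss4, a membrane serine protease, stood at 9.51 and 10.3 CPM in brain, 18, 29.9 and 22.8 in liver and 5.41, 4.39 and 6.36 in subcutaneous hypoxic cells. Its contrast of -2.20 ± 0.208 (adjusted p = 0.000112) was -2.25 among matched cells (adjusted p = 0.00131), so it marked liver tumour cells of both kinds. Bex4 stood at 21.7 and 16.5, 27.1, 26.7 and 27.2, and 8.35, 7.62 and 9.11 CPM (-1.77 ± 0.148, adjusted p = 4.23e-05). Sfrp5 stood at 45.3 and 50, 163, 176 and 111, and 34.0, 64.1 and 68.4 CPM (-1.51 ± 0.255, adjusted p = 0.00947), and its call was lost in 3 alternatives, among them leaving out liver 1 (adjusted p = 0.0674). The calcium buffer Calb1 was lower by -1.68 ± 0.365 (adjusted p = 0.0447), at 82.2, 93.8 and 142 CPM in liver and 16.2, 39.9 and 47.5 in subcutaneous hypoxic cells, and this call was lost in 8 alternatives, among them leaving out subcutaneous 2 (adjusted p = 0.157) or any brain or liver library (0.0580 to 0.108).

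Fgf21, a stress hormone of the ATF4 pathway, separated hypoxic cells of brain from the rest. It stood at 8.60 and 4.12 CPM in brain, 26.1, 21.8 and 22.8 in liver and 42.7, 46.4 and 46.5 in subcutaneous hypoxic cells. Matched cells held 5.94 and 10.1, 15.7, 7.43 and 8.96, and 2.68, 7.40 and 9.74. The subcutaneous contrast against brain was 2.90 (adjusted p = 0.000106) in hypoxic cells and -0.31 (adjusted p = 0.796) in matched cells. Liver against brain it was 2.04 (adjusted p = 0.00170).

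Brain hypoxic cells carried more Plvap, an endothelial diaphragm protein, than liver ones, at 13.6 and 20.3 against 2.25, 2.52 and 1.88 CPM (liver minus brain -2.88, adjusted p = 0.00212, lost without brain 2 at 0.0652). Matched cells showed a like gap, at 12.3 and 14.5 in brain and 1.47, 1.69 and 1.55 in liver. Subcutaneous hypoxic cells held 26.3, 13.7 and 13.2. Bst2 and H2-K1, interferon and antigen presentation genes, stood at 31.7 and 57.1, and at 54.3 and 43.8 CPM in brain. Brain matched cells held 104 and 49.5 CPM of Bst2 and 80.8 and 26.1 of H2-K1, and in brain 1 the matched cells held more of both. In brain 1, 57.1% of the Bst2 UMIs came from 1 hypoxic cell. Transthyretin, Ttr, read 612 CPM in brain 2, where 2053 of 2079 UMIs lay in 1 cell, and the transferrin gene Trf had 83.3% of its brain 1 UMIs in 1 cell. Barcodes that hold a host and a tumour cell cannot be told apart from host RNA taken up in droplets for these genes. Kcnh3, a potassium channel, was higher in liver than brain in hypoxic cells (2.19, adjusted p = 0.00280) and in matched cells (2.65, adjusted p = 0.000435), and the first call was lost in 2 alternatives, among them leaving out brain 2 (adjusted p = 0.0534). Sema3c, a guidance factor, and Dnaja4, a co-chaperone, were higher in liver than brain hypoxic cells by 2.15 (adjusted p = 0.0195) and 2.11 (adjusted p = 0.0244). The call of Sema3c was lost in 7 alternatives, among them leaving out brain 1 (adjusted p = 0.122), brain 2 (0.187), liver 1 (0.0830) or liver 3 (0.0597). That of Dnaja4 was lost in 6, among them leaving out any brain or liver library (adjusted p = 0.0699 to 0.246).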

How the data were processed

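Single-cell 3′ RNA libraries of 8 allografts were used, grouped by site from the labels. Each library came as a matrix of whole-number UMI counts that the authors deposited, in Cell Ranger format 3.0.0 per the file headers; Cell Ranger, STAR and mm10 are named in the submitters' processing notes. Barcodes had been filtered by the authors, and no doublet caller was run here. Symbols that occur more than once were given to the entry with most UMIs. Each hypoxic cell was matched to 1 other tumour cell of its library whose UMI total lay within 10%. Counts summed per library were tested with edgeR 4.0.16 (limma 3.58.1, R 4.3.3; TMM, filterByExpr, quasi-likelihood F test, Benjamini-Hochberg threshold 0.05), with DESeq2 1.42.0 as an alternative. Genes left out by the filter held 0.0706% of the UMIs. Shares and cell-level values used Python 3.11.15, numpy 2.4.6, pandas 2.3.3 and scipy 1.17.1, with exact permutation tests. The scripts were tested on simulated data.

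Genes named are the 14 largest fold changes per direction past the threshold with mean CPM of 10 or more and 1 sign in all 8 libraries, outside the rule genes, then list members by size, the 5 smallest interaction p-values, and 4 genes per direction and pair of sites without overlap. Others named from a list were chosen after their values were seen. The members, lists and tests were chosen with earlier results of these data known. Alternatives changed the depth, thresholds, comparators, filters, normalization, test, block and libraries. Some genes that these rules pick are not reported here.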

Additional observations from a re-analysis of the deposited data

Results flagged for a closer look

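The difference between hypoxic and matched cells varied between sites for 1573 genes, by edgeR's interaction test. Among genes with a mean of at least 10 CPM the smallest adjusted p-values were those of Pgk1 (1.98e-21), S100a8 (6.16e-21), Fam162a (5.38e-20), Espn (5.38e-20) and Gpi1 (1.33e-18). For Pgk1, Fam162a, Espn and Gpi1 the difference was largest in subcutaneous tumours and smallest in liver. S100a8, by contrast, rested on single cells: 99% of its UMIs in brain 1 hypoxic cells and 99.9% in liver 2 matched cells lay in 1 cell each.

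Cells outside the tumour class also carried the 6 genes, with 5.73% of 2078 cells at 4 or more UMIs. These cells entered no comparison.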

How the results depend on the processing

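Counts of genes depended on the setting. Higher in hypoxic cells were 1589 genes, 377 with cells of 4 or 5 UMIs only, 304 without the sample block, 770 by DESeq2 and 839 to 1667 when 1 library was left out. Lower were 1584, then 468, 80, 987 and 862 to 1685, and 2429 with all other tumour cells as comparators. The 1573 interaction calls became 2726 with all others, 253 with 4 or 5 UMIs, 654 by DESeq2 and 1166 to 1580 with 1 library left out. Between sites within hypoxic cells, 555 calls (subcutaneous against liver) became 132 with 4 or 5 UMIs and 192 to 1024 with 1 library left out. The 909 calls of subcutaneous against brain became 576 with at least 6 UMIs, 254 with 4 or 5, and 201 to 2048 with 1 library left out. The 536 calls of liver against brain became 207 with at least 6 UMIs and 107 to 993 with 1 library left out. The fits with 4 or 5 UMIs and those that left out a library used fewer cells or samples, and for the other settings the cause was not tested. Fits that left 1 brain library assume that it varies like the other groups.

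Thinning to 3000 UMIs with at least 4 reversed the liver minus brain share to -0.196 points. Leaving out 1 library gave 15.3 to 19.5 points for subcutaneous minus liver, 18.5 to 22.8 for subcutaneous minus brain and 2.69 to 3.56 for liver minus brain. The G2/M difference reversed to 5.42 points against all other tumour cells, which are shallower, and spanned -2.81 to -0.613 with 1 library left out. Of 1008 values of named genes under alternatives, 923 kept direction and call, 85 kept direction and lost the call, and none reversed.

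Replicate numbers were shared between sites, but same-numbered libraries did not deviate together (correlations of -0.19 to 0.295), so they were not taken as pairs. With a replicate block the calls between sites were 758, 863 and 443 for subcutaneous against liver, subcutaneous against brain and liver against brain.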

Other observations

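Sterol synthesis genes were lower in hypoxic cells in 6 of 20 cases (13% of all tested genes were) and higher in none, with a median log2 difference of -0.07, and ribosomal protein genes were higher in 10 of 80, near the 13.1% of all tested genes, and lower in 1. Fdps, farnesyl diphosphate synthase, fell by 0.17 ± 0.0485 (edgeR adjusted p = 0.0158). In subcutaneous tumours alone 55 ribosomal protein genes were higher and 4 lower, where 22.4% of all genes were higher and 21.5% lower. Without thinning, Sfrp5 was detected in fewer hypoxic than matched cells, by -9.87 points and in 8 of 8 libraries (exact sign-flip permutation, adjusted p = 0.0391). Rem2, a small GTPase, was lower by -2.71 points at the same adjusted p. Cldn7, a tight junction claudin, was 4.53 points higher in 7 of 8 and did not pass (exact permutation, adjusted p = 0.0521).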
